A study of Mus musculus with 23 samples.

Results

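Binding sites of p65 (RelA) in wild type macrophages were compared before and after 1 h with KLA (Kdo2-Lipid A), the active core of endotoxin. All sites of the untreated list and of the KLA list were taken, 702 and 30021 peaks, or 30723 of the 58278 peaks in the 5 peak lists of the series. An untreated peak that overlapped a KLA peak by 1 bp or more was called kept and the others lost, and a KLA peak that overlapped no untreated peak was called gained. This gave 532 kept, 170 lost and 29489 gained sites.

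p65 is the transactivating subunit of the most abundant form of NF-κB. In a resting cell it is held in the cytoplasm by IκB proteins. Lipid A binds the receptor TLR4, whose signal leads to the breakdown of IκB, and p65 then enters the nucleus and binds κB sites in promoters and enhancers of inflammatory genes. In macrophages many of these enhancers are marked beforehand by lineage factors, and the gene of IκBα is itself a target of p65.

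The cells were peritoneal macrophages from male C57BL/6 mice of 6 to 8 weeks, collected by lavage 3 to 4 days after thioglycollate and held overnight in 0.5% serum. Both groups had the genotype NCoR fl/fl Lys M-Cre -/-, so both carried floxed NCoR alleles without the Cre transgene that deletes them in myeloid cells. The untreated group (ThioMac-WT-p65-notx) received no agonist, and the treated group (ThioMac-WT-p65-KLA1h) received 100 ng/ml KLA for 1 h. Both were precipitated with the p65 antibody sc-372. Whether animals were pooled is not given in the sources used here. The sites were also looked up in p65 libraries of NCoR knockout macrophages (NCoR fl/fl Lys M-Cre +/-, untreated and after 1 h of KLA, 1 library each), where Cre under the Lys M promoter deletes NCoR in myeloid cells. The other list gave biotin-tagged LXRβ in RAW264.7 cells, a mouse macrophage line, treated with the LXR agonist GW3965. Each group was 1 library, so differences were not checked against replicates, no test between conditions was run, and an interval given with a value reflects counting error alone. Peak lists hold no expression values, so the macrophage label could not be set against marker genes.

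The KLA library was deeper, with 2120392 tags against 777228. Heights are the authors' normalized tag counts, in tags per 10000000 tags of the library, so 1 tag was worth 12.9 untreated and 4.72 after KLA. The lowest listed height was 64.3 untreated (5 tags) and 18.9 after KLA (4 tags). The untreated list was called against an input library and the KLA list without one. Positions are on mouse build mm9. Sites are given by position without a gene name, because no annotation of that build was used.

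Most sites present before KLA were still listed after it, and almost all KLA peaks overlapped no untreated peak. The share of untreated peaks kept was 75.8% (95% Clopper-Pearson interval 72.4 to 78.9), and 98.2% of KLA peaks were gained. With 702 untreated peaks against 30021 KLA peaks, a gained share near this value was largely set by list size. By untreated height the kept share was 72.3% (67.9 to 76.4) of the 448 peaks with up to 6 tags, 83.8% (76.8 to 89.3) of the 148 with 7 to 9 tags, and 73.6% (59.7 to 84.7) of the 53 with 10 to 14. Of the 37 peaks with 15 to 29 tags 81.1% (64.8 to 92.0) were kept, and of the 16 with 30 or more all but 1. The intervals of the first and second of these classes do not overlap, those of the taller classes overlap both, and the share had no steady order with height. The overlap rule and the fixed peak widths, 103 bp untreated and 132 bp after KLA, set the distance that divides kept from lost. The centres of a kept pair were at most 117 bp apart, and the closest KLA centre to a lost site was 118 bp away.

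Read from the KLA list, prior listing went with height. Only 0.465% (0.339 to 0.622) of KLA peaks with up to 6 tags had an untreated peak, against 2.49% (2.08 to 2.96) of those with 15 to 29 tags and 11.0% (9.72 to 12.5) of those with 30 or more. Among the 10 tallest KLA peaks 4 were kept sites, among the 50 tallest 21, among the 100 tallest 27, and among the 1000 tallest 156 (15.6%, 13.4 to 18.0). The 230 kept sites with 30 or more KLA tags made up 43.2% of all kept sites, while 6.29% of gained sites were that tall. The median KLA height was 115.6 (interval by order statistics 99.0 to 132.1) at kept sites and 37.7 (37.7 to 42.4) at gained sites.

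**Figure D1:**
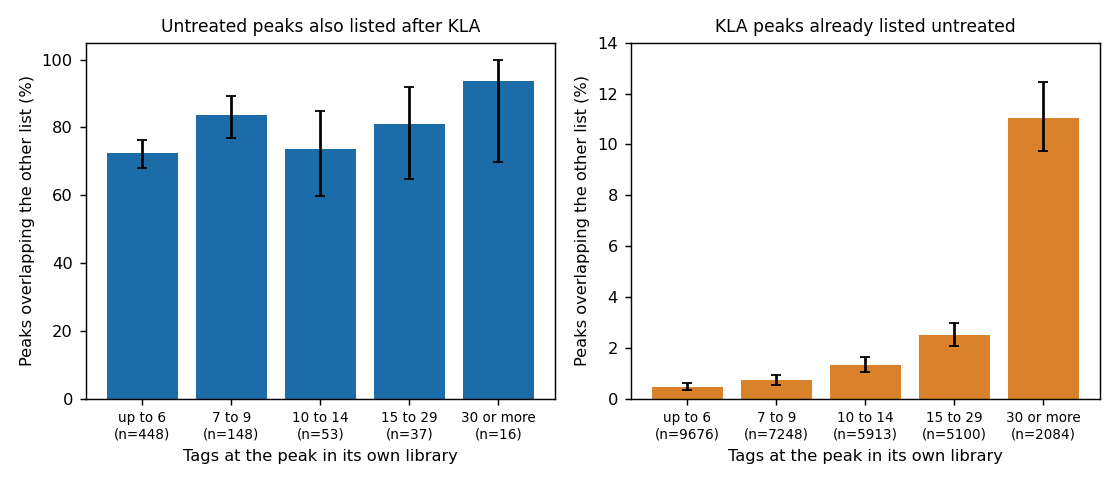
Share of peaks overlapping the other list (%), by the number of tags at the peak in its own library, with exact 95% intervals as error bars and the number of peaks under each bar. The left panel shows untreated peaks, with kept shares from 72.3% to 93.8%, and the right panel KLA peaks, where the share goes from 0.465% to 11.0%. The y axes of the panels have different ranges.

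The lowest untreated height, 64.3, limits what can be called gained. Of the 29489 gained sites, 21833 (74.0%) were lower than that after KLA, so a site of the same height would not have been listed untreated. The other 7656 were at or above it, and 3472 had a 95% Poisson interval of their height wholly above it. Of the gained sites 2149 were at least 2 times and 130 at least 5 times as high as the lowest untreated height. With the KLA list limited to heights of 64.3 or more, 8024 KLA peaks remained, of which 368 were kept and 7656 gained.

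The 10 tallest gained sites were taken among those with no untreated centre within 500 bp, and 9 of them lay over 10 kb from any untreated peak. The tallest of all, at chr19:6945450-6945582, reached 679.1, and its nearest untreated peak was 39075 bp away. At chr2:167603042-167603174 the KLA height was 580.1 (Poisson interval 482 to 692), and the nearest untreated peak was 23448 bp away. In the separate knockout KLA library it had 543.8. At chromosome 11 the sites at 51647050-51647182 and at 117807848-117807980 both had 561.2 (465 to 672). Their knockout KLA heights were 555.7 and 567.7. The nearest untreated peaks lay 1190987 and 13629 bp away.

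At chr12:8393577-8393709 the KLA height was 542.4 (448 to 651), with no untreated peak within 4520647 bp. The site at chr4:102296836-102296968 reached 532.9 (439 to 641). Those at chr18:65488447-65488579 and at chr19:10052385-10052517 both had 504.6 (414 to 610). At the 3 sites last named the knockout KLA heights were 555.7, 525.8 and 430.2. The site at chr17:29531176-29531308 had 575.4 (478 to 687) after KLA, and here an untreated peak of 77.2 was centred 1121 bp away. The next KLA peak was 519 bp off. All 10 of the tallest gained sites had another KLA peak within 2222 bp.

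At the 532 kept sites the heights went in both directions. The median ratio of KLA to untreated height was 1.28 (interval 1.16 to 1.51), and 310 sites (58.3%) were above 1. At 171 sites (32.1%) the KLA height was at least 2 times the untreated one, and at 114 (21.4%) it was 0.5 times or less. Fewer sites stood clear of counting error: the exact interval of the ratio lay above 1 at 142 sites and below 1 at 63. Peak width also enters, at 132 bp in the KLA list and 103 bp in the untreated one. The median ratio was 1.00 once each height was divided by its width.

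The sites with the highest ratios were low before KLA. This follows in part from picking them by the ratio, whose divisor is the untreated height. At chromosome 17 the untreated peak at 18037892-18037994 held 5 tags, a height of 64.3 (20.9 to 150). After KLA the height there was 650.8 (547 to 769), a ratio of 10.1 (4.23 to 31.6). At chr10:37058130-37058232 the untreated height was also 64.3 and the KLA height 556.5, a ratio of 8.65 (3.60 to 27.1). At chr3:135354389-135354491 the heights were 64.3 and 528.2, with a ratio of 8.21 (3.42 to 25.8). The sites at chr14:55061534-55061636 and at chr12:87046633-87046735 went from 64.3 to 485.8 and to 457.5. That at chr13:20879021-20879123 went from 90.1 to 636.7. In each of the last 3 cases the ratio was over 7, at 7.56 (3.13 to 23.7), 7.12 (2.94 to 22.4) and 7.07 (3.34 to 17.9).

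A site at chr4:132539004-132539136, among the 5 tallest kept sites, had 115.8 untreated (9 tags) and 580.1 after KLA (123 tags), a ratio of 5.01 (2.55 to 11.2). In knockout cells its heights were 114.5 untreated and 519.9 after KLA. The 5 tallest kept sites started between 64.3 and 115.8, in a list whose median untreated height was 77.2 and upper quartile 102.9.

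The tallest untreated sites were mostly lower after KLA. Of the 45 kept sites with 15 or more untreated tags, 2 had a ratio above 1. The median ratio was 1.43 for kept sites with up to 6 untreated tags, 1.65 with 7 to 9, 1.33 with 10 to 14, 0.366 with 15 to 29, and 0.453 with 30 or more. With only peaks of 10 or more tags in each list, the median was 0.469 (0.412 to 0.580). Both the classes and this limit select on the untreated height, which is the divisor of the ratio, so a lower ratio at taller untreated sites follows in part from the selection and is given as a description.

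Part of these tall untreated sites were also high in input. A scaled input count of 1 tag or more was listed at 44 untreated peaks, 35 of them kept and 9 lost. The 35 kept sites had ratios from 0.220 to 0.559, all below 1, with median heights of 334.5 untreated and 122.6 after KLA. They included 13 of the 15 kept sites with 30 or more tags. Without them the median ratio of the other 497 kept sites was 1.47 (1.25 to 1.60). The KLA list had no input column, and the part of input in these heights was not tested.

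**Figure D2:**
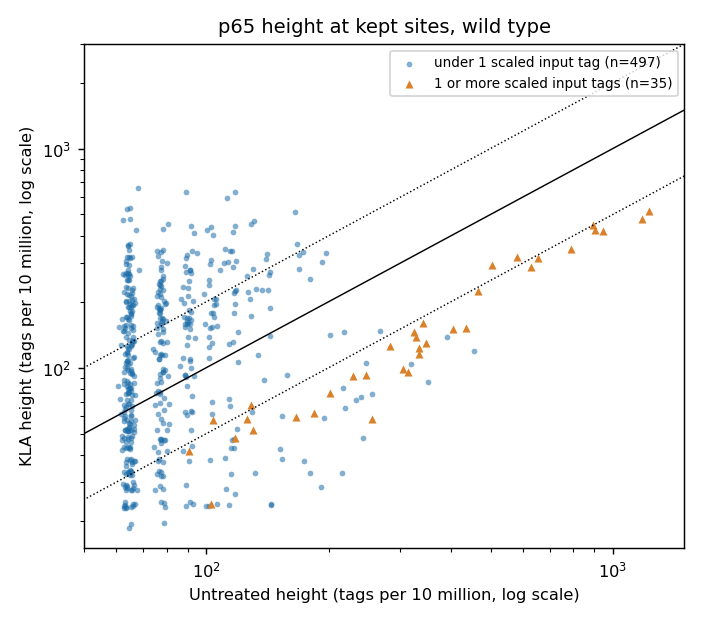
KLA height against untreated height (both in tags per 10000000 library tags, log scales) at the 532 kept sites, with circles for sites with under 1 scaled input tag and triangles for those with more; points are moved slightly at random so that ties show. The solid line marks equal heights and the dotted lines ratios of 2 and 0.5. The triangles all lie below the solid line, and low untreated sites spread from under 0.5 to 10.1 times their untreated height.

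Tall sites with low input were also mostly lower after KLA. Of 24 untreated sites with 15 or more tags and under 1 scaled input tag, 19 were kept, 17 of those with a ratio below 1, and 5 were lost. A subset of 16, singled out after their values were seen, stood at over 100-fold above the local signal in the surrounding 10000 bp. Of these 16 sites 15 were kept, 13 with a ratio of 0.5 or less. In 14 of the 16 the focus ratio, the fraction of tags on the side of the centre that their strand predicts, was 0.9 or more.

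Single sites of this kind show the pattern. At chr5:114623090-114623192 the height was 437.5 untreated and 117.9 after KLA, a ratio of 0.269, on 34 and 25 tags. At chr1:12634838-12634940 it was 411.7 and 141.5, on 32 and 30 tags. At chr2:16604694-16604796 it was 321.7 and 103.8, on 25 and 22 tags. The number of tags was thus similar in both libraries although the KLA library held 2.73 times as many. A site with equal tag numbers in both has a ratio of 0.367, and the medians over the 15 kept sites were 19 tags untreated and 17 after KLA.

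Both knockout lists held all 16 sites. Of all kept sites with 15 to 29 untreated tags, 93.3% were in the untreated knockout list and 76.7% in the knockout KLA list. With 30 or more tags the shares were 100% and 93.3%. In 14 of the 16 the untreated knockout height was above the untreated wild type height, for example 597.9 against 437.5 at the chromosome 5 site, 737.8 against 411.7 at the chromosome 1 site and 725.1 against 321.7 at the chromosome 2 site. After KLA the knockout heights at these 3 sites were 161.3, 197.2 and 119.5. The 2 exceptions, at chr11:70409304-70409406 and at chr16:49970719-49970821, were also the only ones of the 16 with a wild type ratio above 1. Both started at 193.0 and reached 306.5 and 334.8 after KLA. Untreated knockout heights were often above wild type ones beyond these 16 sites. The median ratio of the 2 was 1.13 (0.989 to 1.19) over 223 kept sites and 1.69 (1.43 to 2.18) over 61 lost sites. Untreated peaks were 126 bp wide in the knockout list and 103 bp in the wild type list.

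The lowest ratios of all kept sites were at chr2:174167329-174167431 (193.0 untreated and 28.3 after KLA, ratio 0.147, 0.0466 to 0.400) and at chrX:119944978-119945080 (218.7 and 33.0, ratio 0.151, 0.0529 to 0.383). At chr3:152786724-152786826 and at chr9:122557167-122557269 the heights were 141.5 untreated and 23.6 after KLA, a ratio of 0.167 (0.0454 to 0.520). The untreated knockout heights were 521.5 at the chromosome X site, 623.3 at the chromosome 3 site and 279.9 at the chromosome 9 site. The chromosome 2 site overlapped no untreated knockout peak.

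Sites were then grouped by their wild type ratio, and the same contrast was read from the knockout libraries, which were not used to form the groups. All 4 p65 lists held 197 of the kept sites, of which 100 had a knockout ratio above 1. At the 60 of them with a wild type ratio of 2 or more, the knockout ratio was above 1 at 60 of 60, with a median of 2.82 (2.27 to 3.37). At the 59 with a wild type ratio of 0.5 or less, it was below 1 at 58, with a median of 0.267 (0.194 to 0.489). At the 78 in between, 39 were above and 39 below 1. Within the 59 sites, the 42 with under 1 scaled input tag had a median knockout ratio of 0.186 (0.164 to 0.248), against 0.679 (0.587 to 0.793) at the 17 with more. Only sites in both knockout lists enter, 60 of the 171 kept sites with a ratio of 2 or more and 59 of the 114 with 0.5 or less. At the 60 sites the median untreated knockout height was 76.3, near the lowest listed 63.6, and the median knockout KLA height 254. As in wild type cells, the knockout libraries differed in depth, at 786121 and 1673506 tags, and they came from cells lacking NCoR. How far depth and the listing limits set the direction of these ratios was not tested.

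The groups also differed in surroundings. Kept sites with a ratio of 2 or more stood at a median of 68.6-fold above local signal untreated, and their KLA peak had another KLA peak at a median of 3933 bp. Those with a ratio of 0.5 or less and under 1 scaled input tag stood at a median of 178-fold, and their KLA peak had another at a median of 17154 bp. Those with a ratio of 0.5 or less and more input stood at 12.8-fold, with another KLA peak at a median of 1093 bp. In the order given, their numbers were 171, 83 and 31, and their median KLA tags 51, 6 and 26. Distance to the next KLA peak went with KLA height. Over all kept sites its median was 17478 bp with up to 6 KLA tags and 3584 bp with 30 or more. The distances of the first 2 groups are thus not separate from their KLA heights.

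Of the 170 lost sites 124 (72.9%) had up to 6 tags, against 63.8% of all untreated peaks and 60.9% of kept ones, and the median height was 64.3, against 77.2 at kept sites. Many had a KLA peak close by. One was centred within 500 bp of 37 lost sites, 58 others had one within 10 kb, and 75 (44.1% of lost sites) had none within 10 kb. Of these 75, 62 had up to 6 tags, the highest was 218.7, and 1 had 1 or more scaled input tags. With centres at most 500 bp apart counted as kept, 133 sites were lost.

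The tallest lost site, at chr2:98506771-98506873 with 669.0, and the pair on chromosome 17 from 39984499 and from 39984955 had KLA peaks at 470, 2014 and 2470 bp. Those at chr12:75905397-75905499 and at chr17:4626465-4626567, both of 257.3, had KLA peaks of 108.5 and 84.9 centred 157 and 179 bp away. All 5 thus had a KLA peak within 2470 bp. Scaled input tags were 4.2 at the chromosome 2 site and 2.8 at the chromosome 12 site, and at most 0.4 at the other 3.

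Farther from any KLA peak, the tallest lost site was at chr6:69466316-69466418, with a height of 218.7 on 17 tags (127 to 350) and the nearest KLA peak 1259437 bp away. Knockout cells listed it at 547 untreated and 71.7 after KLA. A site at chr2:19985597-19985699 had 154.4, with 241.7 and 47.8 in knockout cells. At chromosome 9 the site at 62456362-62456464 had 128.7, with 648.8 and 83.7 in knockout cells. The sites at chr5:53046353-53046455 (141.5) and at chr9:46502492-46502594 (128.7) were listed in untreated knockout cells at 330.7 and 127.2 and overlapped no knockout KLA peak. All 5 stood over 300-fold above local signal and had at most 0.1 scaled input tags.

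Of all lost sites 61 (35.9%, 28.7 to 43.6) were in the untreated knockout list, and of kept sites 223 (41.9%, 37.7 to 46.2), against 40.5% of all untreated wild type peaks. In the knockout KLA list the shares were 24.1% (17.9 to 31.3) of lost and 85.5% (82.2 to 88.4) of kept sites, against 70.7% overall. Thus 41 sites lost in wild type cells were listed after KLA in knockout cells. Their median height there was 47.8.

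KLA sites lay close together. The median distance from a gained site to the next KLA peak was 5875 bp (5747 to 6002), and from a kept site 4553 bp (3727 to 5752). Another KLA peak lay within 10 kb of 63.2% (62.7 to 63.8) of gained and 68.2% (64.1 to 72.2) of kept sites. The share grew with height. Among gained sites it was 48.0% (47.0 to 49.0) with up to 6 tags, 70.7% (69.5 to 71.8) with 10 to 14 tags and 81.0% (79.2 to 82.8) with 30 or more. Among kept sites it was 26.7% (14.6 to 41.9) with up to 6 KLA tags and 77.8% (71.9 to 83.0) with 30 or more. In the lowest class the share of kept sites was below that of gained sites, and the intervals do not overlap. Kept sites of this class had at most 28.3 after KLA and at least 64.3 untreated, so all had a ratio below 0.5. They were thus a selected set, and the contrast is not one of kept and gained sites in general. With the KLA list limited to heights of 64.3 or more, the share of gained sites with a neighbour was 47.4%.

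Untreated peaks were far sparser, with a median of 523853 bp from a lost site and 520041 bp from a kept site to the next untreated peak. Gained sites outnumbered untreated peaks by far, which limits the share that can lie beside one. Of the gained sites 74 (0.251%) were centred within 500 bp of an untreated peak, 812 (2.75%) within 10 kb, and 25181 (85.4%) over 100 kb away.

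**Figure D3:**
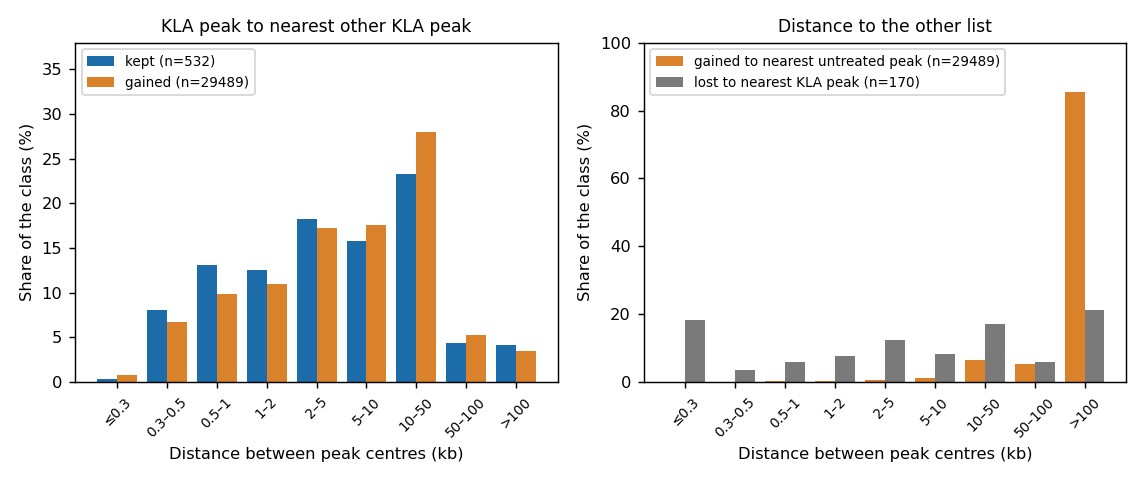
Distribution of distances between peak centres (kb), as the share of each class (%). The left panel gives the distance from kept and gained KLA peaks to the nearest other KLA peak, with 68.2% and 63.2% within 10 kb. The right panel gives the distance from gained sites to the nearest untreated peak, over 100 kb for 85.4%, and from lost sites to the nearest KLA peak, within 500 bp for 37 of 170. The y axes of the panels have different ranges.

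Isolated gained sites were few and mostly low. Of the gained sites 1039 (3.52%) had no other KLA peak within 100 kb, from 5.63% of those with up to 6 tags to 0.755% (14 sites) of those with 30 or more. The tallest were at chr3:64992398-64992530 (235.8, 175 to 311), chr5:30646246-30646378 (231.1, 171 to 306) and chr19:57684513-57684645 (212.2, 155 to 284). Knockout cells listed them after KLA at 215.1, 179.3 and 209.1. Next came the sites at chr17:49158210-49158342 (183.9) and chr2:29820645-29820777 (179.2), at 119.5 and 131.5 in knockout cells. The site on chromosome 17 was 394196 bp from any other KLA peak.

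Peaks of both lists were joined into loci where neighbouring centres lay at most 10 kb apart. This gave 17721 loci, of which 17078 (96.4%) held no untreated peak, 568 held peaks of both lists and 75 only untreated peaks. A single gained peak formed 10811 loci, and 6267 others held 2 or more gained peaks and no untreated peak. Loci with an untreated and a KLA peak held 2.99 KLA peaks on average, against 1.66 in loci without an untreated peak. Of the 681 loci with 5 or more KLA peaks 112 had an untreated peak, and of the 50 with 10 or more 16 did. A longer locus has more room for an untreated peak, so these contrasts can follow in part from locus size, which was not tested. These 681 loci took in 14.3% of gained sites.

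The 5 loci with most gained sites had no untreated peak at all. On chr2:128181323-128260563, 20 gained peaks filled 79.2 kb, with heights from 23.6 to 207.5 and a median of 82.6. Knockout cells had 13 KLA peaks there. On chr5:115934467-115995166 there were 19 gained peaks in 60.7 kb, with a median of 66.0, and on chr14:75547749-75595677 there were 18 in 47.9 kb, with a median of 73.1. On chr11:8460566-8534891 there were 17 in 74.3 kb, with a median of 61.3, and on chr18:50183753-50266239 there were 16 in 82.5 kb, with a median of 47.2. Knockout KLA cells had 14, 13, 18 and 11 peaks in these 4 loci.

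Each of these loci mixed tall and low sites. The chromosome 18 locus held the tallest, 334.8 at 50242733-50242865, beside peaks as low as 18.9. At least 64.3, the lowest untreated height, was reached by 13 of 20 peaks in the chromosome 2 locus, 10 of 19 on chromosome 5, 11 of 18 on chromosome 14, 8 of 17 on chromosome 11 and 6 of 16 on chromosome 18.

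The loci with most lost sites differed from these. On chr9:3000063-3036405, 18 untreated peaks were kept, 4 lost and 2 KLA peaks gained, with untreated heights up to 926.4 and a median of 2.25 scaled input tags. On chr11:102050870-102068505, 7 were kept, 3 lost and 6 gained, with untreated heights up to 270.2, KLA heights up to 146.2 and at most 0.1 scaled input tags. On chr2:174155192-174171836, 2 were kept and 4 lost and 1 KLA peak was gained. Here the untreated heights reached 193.0, no KLA peak was above 33.0, and input was at most 0.1 scaled tags. Untreated knockout cells had 18, 11 and 0 peaks in these loci.

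Gained sites were spread over all chromosomes. Chromosome 2 held most, 2494 (8.46%), then chromosome 11 with 2163 (7.33%) and chromosome 1 with 2084 (7.07%). Per Mb between the first and last peak listed in any of the 5 lists, chromosome 11 was densest among autosomes with 18.2 gained sites and chromosome 19 followed with 17.2, while chromosome 14 had the fewest with 9.56. Chromosome X had 3.22 per Mb, or 521 sites (1.77%). It held 1.60% of knockout KLA peaks and 0.984% of LXRβ peaks. The mice were male, and whether this bears on the density on X was not tested. The median height of gained sites was 37.7 or 42.4 on each autosome and 33.0 on X.

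Kept and lost sites departed from this spread on chromosome 9. It held 4.97% of gained, 7.89% of kept and 10.6% of lost sites. Of its 60 untreated peaks 25 had 1 or more scaled input tags, against 19 on all other chromosomes. The median ratio of its 42 kept sites was 0.456, and of the 21 with under 1 scaled input tag 0.734. A single locus, chr9:3000063-3036405, held 18 of these 42 kept sites and 4 of the 18 lost sites on chromosome 9. The departure in kept sites thus rests in large part on that locus. Chromosome 11 held 9.77% of kept sites, with a median ratio of 1.06 over 52 sites, and chromosome 2 10.2%, with a median of 1.52 over 54.

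**Figure D4:**
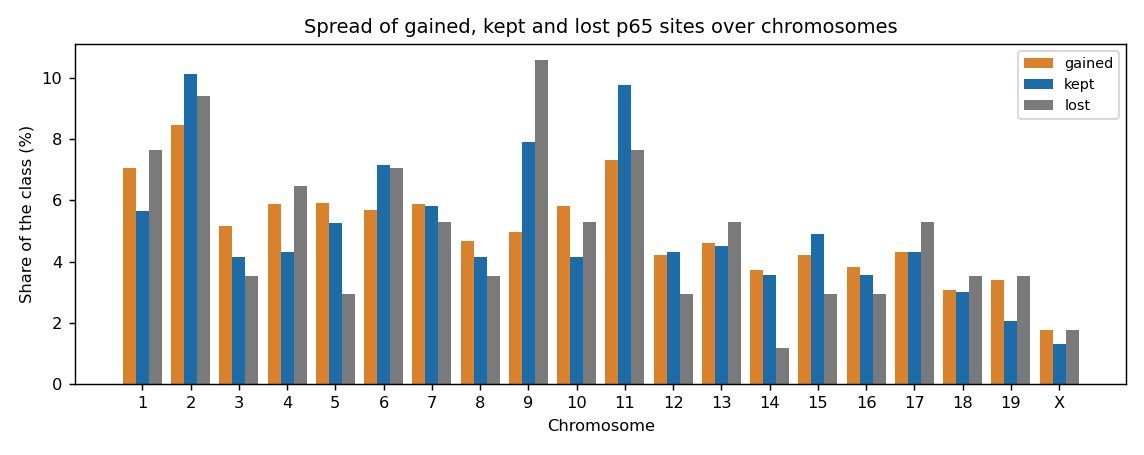
Share of gained, kept and lost sites (% of each class) on each autosome and X. Gained sites range from 1.77% on X to 8.46% on chromosome 2, and chromosome 9 holds 4.97% of gained against 7.89% of kept and 10.6% of lost sites. A single locus, chr9:3000063-3036405, holds 18 of the 42 kept and 4 of the 18 lost sites of chromosome 9.

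Gained sites were looked up in the knockout KLA list, which had no part in defining them. It held 15741 of them (53.4%, 52.8 to 53.9), against 54.0% of the whole wild type KLA list. The share was 23.7% (22.8 to 24.5) with up to 6 tags, 44.6% (43.5 to 45.8) with 7 to 9, 67.8% (66.5 to 69.0) with 10 to 14, 90.1% (89.3 to 91.0) with 15 to 29 and 97.8% (97.0 to 98.4) with 30 or more. Kept sites were found at 48.9% (33.7 to 64.2) in the lowest and 99.1% (96.9 to 99.9) in the highest class. The lowest listed knockout KLA height was 29.9, above the top height of 28.3 in the class with up to 6 tags. A site of equal height in that class would not have been listed, so the rise with height follows in part from this limit. Of the 1000 tallest wild type KLA peaks 985 were in the knockout KLA list. At gained sites in both lists the median ratio of knockout to wild type height was 1.09 (1.08 to 1.09), with peak widths of 144 bp in the knockout list and 132 bp here. Only sites at 29.9 or more in knockout cells enter this ratio. Every site with up to 6 wild type tags that enters therefore has a ratio above 1, which pushes the median up.

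**Figure D5:**
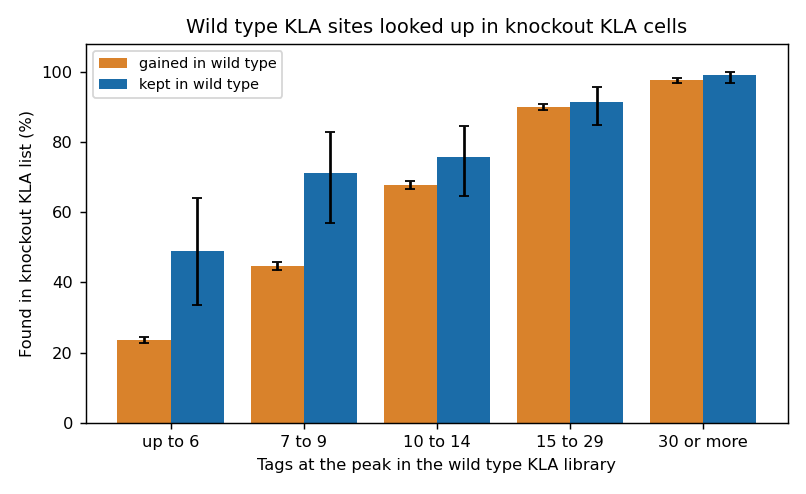
Share of wild type KLA sites found in the knockout KLA list (%), by tags at the peak in the wild type KLA library, for gained and kept sites, with exact 95% intervals. Both go up with height, to 97.8% and 99.1% in the highest class. The lowest class lies wholly below the lowest listed knockout KLA height, 29.9.

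Some gained sites were listed in untreated knockout cells. These were 818 (2.77%, 2.59 to 2.97), against 3.47% of all wild type KLA peaks, and the share went from 1.25% (1.03 to 1.49) with up to 6 tags to 6.31% (5.25 to 7.52) with 30 or more. The untreated knockout list held 2227 peaks from nearly the same number of tags, and its lowest listed height was 63.6. An LXRβ peak overlapped 1077 gained sites (3.65%, 3.44 to 3.87) and 85 kept sites (16.0%, 13.0 to 19.4), against 3.87% of all wild type KLA peaks. Among sites with 30 or more KLA tags these shares were 6.69% (5.59 to 7.92) and 20.9% (15.8 to 26.7), so the kept sites stood higher also within the tallest class. This class has no upper limit and does not hold height equal. Its median KLA height was 183.9 at gained and 221.7 at kept sites. RAW264.7 and peritoneal cells are different cells, and an overlap here says only that both lists hold the position.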

How the data were processed

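The members, classes and lists described here were chosen with earlier results of these data known. The submitters' processing notes name Bowtie 0.12.7, the build mm9 and HOMER, whose version is not given in the sources used here. Per the file headers, findPeaks ran in factor mode on each library, at a false discovery rate of 0.001 and at least 4-fold over the surrounding 10000 bp, and counted at most 1 tag per bp. The wild type KLA list used no input and a genome size of 2000000000, the untreated list an input and 4000000000, per the file headers. Local filtering removed 20 untreated and 5916 KLA candidates. Input filtering removed 84 untreated candidates and none of the KLA list, which had no input. A position removed by input from the untreated list could be listed after KLA and count as gained, which was not tested.

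The deposited normalized tag count is a signal per 10000000 library tags. The deposited findPeaks score is near the tags at the peak and served in 1 alternative. The deposited focus ratio is a fraction of tags, and the deposited fold against the surrounding signal is a ratio. Deposited scaled input tags are also a signal.

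Tags were recovered as height times library total divided by 10000000. Overlaps, distances and exact intervals at 95% came from scripts in Python 3.11.15, tested on simulated lists, with scipy 1.17.1, pandas 2.3.3 and numpy 2.4.6. Where several KLA peaks overlapped an untreated peak, the closest centre was used for the ratio. The exact interval of a ratio is conditional on the sum of tags. Tags are not independent molecules. Named sites followed a written rule: the 10 tallest gained with no untreated centre within 500 bp, the 5 tallest isolated, kept sites by ratio (6 highest, 4 lowest) and the 5 tallest, lost sites by height (5, and 5 with no KLA centre within 10 kb), and 5 and 3 loci. The other 18 samples of the series were not analysed here.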

Additional observations from a re-analysis of the deposited data

How the results depend on the processing

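Of 46 recomputed values 25 stayed within the interval or within 1.5 times the reported one, 19 moved and 2 reversed; the cause was not tested unless the setting itself sets it. The kept share, 75.8%, became 81.1% with centres at most 500 bp apart, 60.8% with a reciprocal overlap of 50%, 52.4% with both lists at 64.3 or more, and 70.8% with only peaks of 10 or more tags. In the last 3 settings 275, 334 and 31 sites were lost. Gained sites numbered 7656 at heights of 64.3 or more and 13022 with 10 or more tags. The median ratio of kept sites became 1.91 at heights of 64.3 or more, which drops low KLA peaks, and 1.00 per bp of peak. It fell below 1, to 0.469, with 10 or more tags, a limit that selects on the untreated height. Scaling to tags in peaks gave 0.0607; this multiplies every ratio by 1 factor, set by the shares of tags in peaks of 0.832% untreated and 17.6% after KLA, and says nothing about single sites. The median gained height was 42.4 from the score. Gained sites with a KLA neighbour made up 47.4% at heights of 64.3 or more, 45.7% within 5 kb and 77.8% within 20 kb. Chromosome 2 held 9.38% of gained sites at 64.3 or more. The share of gained sites in the knockout KLA list was 50.2% and 59.3% with centres within 100 and 500 bp, and 90.6% at 64.3 or more. No paired analysis was possible because each group had 1 library and the labels give no replicate numbers. Depth limits the heights, since 1 untreated tag was worth 12.9.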

Other observations

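A total of 40 kept sites were listed in all 5 lists, LXRβ in RAW264.7 cells included. Only 1 of them had 1 or more scaled input tags, and 30 had a KLA to untreated ratio above 1, with a median of 1.77 and median heights of 83.7 untreated and 174.5 after KLA. Of the 197 kept sites in all 4 p65 lists, which include these, 98 were above 1 with a median of 0.994, and of all 532 kept sites 310 were, with a median of 1.28. At chr11:70281455-70281557 the listed height was 128.7 untreated and 471.6 after KLA, beside 101.8 and 334.6 in knockout cells, with an LXRβ height of 10. At chr5:53900909-53901011 the wild type heights were 102.9 and 419.7, beside 89 and 352.6 in knockout cells, with an LXRβ height of 20. A few went the other way. At chr6:10136367-10136469 the wild type heights were 90.1 and 28.3 and the knockout heights 445.2 and 29.9, with an LXRβ height of 8.2. These sites were chosen after their values were seen, and no explanation was tested.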
